A study of Canis lupus familiaris with 34 samples.

Results

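The 10 genes described here are factors and markers of endothelial-to-mesenchymal transition, namely SNAI1, SNAI2, TWIST1, TWIST2, ZEB1, ZEB2, CDH2, CDH11, VIM and S100A4. They were chosen by symbol among the 23768 deposited features, and all 10 were found in the mitral valves of 34 Cavalier King Charles Spaniels, a breed with a high incidence of myxomatous mitral valve disease (MMVD). The 19 dogs labelled ctrl (10 females, 9 males) had no congestive heart failure (10y-noCHF), and the 15 dogs labelled case (6 females, 9 males) had heart failure caused by MMVD (10y-MMVD-CHF). All were privately owned dogs about 10 years old at euthanasia, and no treatment or genotype is given in the labels. In the paper the diagnosis of heart failure drew in part on response to diuretics, so such treatment cannot be told apart from status here. The 10y-noCHF group was not free of valve disease, since it spans dogs from no MMVD to advanced disease without heart failure. Stage, age and weight are not paired with the dogs in the sources used here, so the comparison is of heart failure status and sex only.

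In endothelial-to-mesenchymal transition, cells of an endothelial sheet loosen their junctions, migrate and take on properties of fibroblast-like cells. The process forms the cushions of the embryonic heart from which the valves develop, and it has been studied as a source of activated interstitial cells in diseased adult valves. The SNAI, TWIST and ZEB proteins are DNA-binding transcription factors, and those of the SNAI and ZEB families are best known for repressing junction genes such as E-cadherin. CDH2 (N-cadherin) and CDH11 (OB-cadherin) are calcium-dependent adhesion proteins of mesenchymal cells, VIM is the intermediate filament protein vimentin, and S100A4 is a small calcium-binding protein often called fibroblast-specific protein. None of the 10 is specific for the process in an adult heart, since CDH2 also joins cardiomyocytes at the intercalated disc, and VIM, ZEB2 and S100A4 are also used by leukocytes.

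Each gene was located on canFam4 (UU_Cfam_GSD_1.0), the build of the counts, and each overlapped the RefSeq protein-coding gene of the same symbol. For 4 genes a canine RefSeq feature made of exon blocks was used. These were SNAI2 (chr29:1416067-1418591, minus strand, 3 blocks, 810 bases), CDH2 (chr7:60744941-60958801, plus strand, 16 blocks, 4001 bases), VIM (chr2:18621518-18629571, minus strand, 9 blocks, 1871 bases) and S100A4 (chr7:43483523-43485545, plus strand, 4 blocks, 709 bases). S100A4 lies between S100A3 and S100A5 in the S100 gene cluster, and CDH11 has the cadherin gene CDH8 as its neighbour.

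The other 6 genes were counted only on human alignments that run as 1 block over exons and introns together. These were SNAI1 (chr24:37122362-37128225, plus strand, 5864 bases), TWIST1 (chr14:33428226-33432034, minus strand, 3809 bases) and TWIST2 (chr25:49447112-49498697, plus strand, 51586 bases). ZEB1 (chr2:13140602-13322814, minus strand, 182213 bases), ZEB2 (chr19:48063932-48202134, minus strand, 138203 bases) and CDH11 (chr5:84557689-84708163, plus strand, 150475 bases) span far longer introns. Intronic reads therefore entered these 6 counts, and levels per length can be compared only among the 4 exon-based genes or, with caution, among the 6 spans.

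Reads were counted without strand and on every feature they overlapped, so overlapping genes share counts. The antisense feature VIM-AS1 overlapped 37.5% of the bases of VIM and held 17.99% as many counts, and antisense RNA there cannot be told apart from VIM. ZEB1-AS1 held 0.940% as many counts as ZEB1, and ZEB2-AS1 held 2.02% as many as ZEB2. For SNAI2 the canine feature held 53.0% of the counts of the longer human span of 4202 bases, whereas for CDH2, VIM and S100A4 it held 93.7%, 98.8% and 99.4%.

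Levels below are in CPM, the counts of a feature relative to the total of its library, which was scaled by the TMM factor of edgeR. Total counts ranged from 46185256 to 82361245 per dog, with a median of 59857648. The 10 interstitial markers (among them COL1A1, COL3A1, DCN and LUM) summed to between 12979 and 36791 CPM over the dogs. The 12 endothelial markers summed to between 556 and 1935 CPM, although CLDN5 among them was low throughout (0 to 3.54 CPM). Heart muscle RNA varied far more, with 19 cardiomyocyte markers that summed to between 57.4 and 28674 CPM in 10y-noCHF dogs and between 81.9 and 59053 CPM in 10y-MMVD-CHF dogs. The mean log2 CPM of these 19 markers ran from -0.47 in CAV749 to 10.71 in CAV1047, a female with heart failure that also had the lowest total. CAV1047 and CAV614, a male with heart failure, stood apart from the other dogs in earlier results of these data, so effects are also given without them where they move.

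On a scale per length (RPKM, which is CPM divided by the length of the feature in kilobases), VIM was by far the most abundant of the 4, with a median of 1735 RPKM and a range of 981 to 2309. S100A4 followed with a median of 105 RPKM (39.1 to 207), below VIM in 34 of 34 dogs. SNAI2 came next with a median of 25.7 RPKM (13.03 to 39.6), below S100A4 in 34 of 34 dogs. CDH2 had a median of 16.5 RPKM (10.1 to 88.7), but SNAI2 exceeded it in only 23 of 34 dogs, so the order of these last genes did not hold in every dog.

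Among the 6 genes counted over whole spans, TWIST1 had the highest level per length, with a median of 7.16 RPKM, and was above SNAI1 at 2.05 RPKM in 34 of 34 dogs. CDH11 at 1.77 RPKM, ZEB2 at 1.52 RPKM and ZEB1 at 0.775 RPKM followed. The spans ran from 3809 to 182213 bases with introns included, so this order does not rank transcript levels. TWIST2 was the lowest at a median of 0.0157 RPKM, and it was the only gene of the 10 with fewer than 100 counts in most dogs, its counts running from 10 to 268 with a median of 49. Values of TWIST2 thus carry more counting error than those of the other 9 genes.

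No gene of the 10 passed the threshold for heart failure status in edgeR's quasi-likelihood test with a term for sex, at a false discovery rate (FDR) of 0.1 adjusted over all features. The background was 23 of 19568 features, or 0.118%. At an unadjusted p below 0.05 the count was 1 of 10 against 6.31% of all features, and DESeq2, which called 64 features or 0.327%, called 0 of the 10 as well. The lowest FDR of the 10 was 0.741, for SNAI2. The log2 fold change of 10y-MMVD-CHF over 10y-noCHF was positive for 7 of 10 genes, with a median of 0.064 beside 0.0076 over all features tested. In bulk tissue, fewer cells of a type and less RNA per cell cannot be told apart, which applies to each difference below.

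SNAI2, also called SLUG, had the smallest p of the 10. It was found at 10.6, 18.5 and 31.1 CPM (lowest, median and highest) in 10y-noCHF dogs and at 13.2, 24.7 and 32.1 CPM in 10y-MMVD-CHF dogs. The ranges overlapped almost entirely, and 10 of 15 dogs with heart failure lay above the 10y-noCHF median. The log2 fold change was 0.28 (SE 0.12, 95% interval 0.029 to 0.53, edgeR p = 0.0297, FDR = 0.741), and permuting status within each sex gave p = 0.0408 for the mean log2 difference of 0.26. The estimate was near equal in both sexes, 0.28 in females and 0.28 in males, with an interval of -0.51 to 0.52 for the difference. With the cardiomyocyte marker mean as a covariate the log2 fold change was 0.32 and its SE was 0.085 (edgeR p = 0.000641, FDR = 0.255), still short of the threshold. On the longer human feature the log2 fold change was 0.25 (edgeR p = 0.0507).

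SNAI1, also called Snail, did not separate the groups. It was found at 7.32, 11.8 and 29.2 CPM in 10y-noCHF dogs and at 6.72, 13.8 and 25.2 CPM in 10y-MMVD-CHF dogs. Between the groups it differed by 0.054 on the log2 scale (95% interval -0.35 to 0.45, edgeR FDR = 0.986). The highest dog, the 10y-noCHF female CAV1732, was also the lowest of all 34 for SNAI2.

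TWIST1 had nearly the same level in both groups. The lowest, median and highest values were 17.1, 27.8 and 37.6 CPM in 10y-noCHF dogs and 12.6, 26.7 and 44.3 CPM in 10y-MMVD-CHF dogs. Both ends of the range belonged to the 2 dogs that stood apart, CAV1047 at the bottom and CAV614 at the top. Its log2 fold change was -0.034 (95% interval -0.29 to 0.22, edgeR FDR = 0.986).

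TWIST2 was the most variable of the 10, with a coefficient of variation of 94.2% over all dogs. Levels were 0.181, 0.696 and 3.77 CPM in 10y-noCHF dogs and at 0.191, 0.838 and 4.38 CPM in 10y-MMVD-CHF dogs. A few dogs carried the high end of each group, CAV2156 and CAV614 with heart failure at 4.38 and 3.90 CPM and CAV1732 without it at 3.77 CPM. The estimate for heart failure was 0.49 on the log2 scale, with a wide 95% interval of -0.44 to 1.42 (edgeR FDR = 0.921). It was 0.27 without CAV2156 and 0.31 without CAV614, and the mean log2 difference within sexes was 0.13 (permutation p = 0.522).

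ZEB1 was the steadiest gene, with a coefficient of variation of 13.8%. It was found at 101, 133 and 175 CPM in 10y-noCHF dogs and at 118, 149 and 184 CPM in 10y-MMVD-CHF dogs, and 11 of 15 dogs with heart failure lay above the 10y-noCHF median. Its log2 fold change was 0.11 (SE 0.069, 95% interval -0.030 to 0.25, edgeR FDR = 0.848). The interval excluded a difference of more than 0.25 on the log2 scale in either direction at the 95% level.

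ZEB2 varied by 18.9% and overlapped between the groups. It was found at 162, 209 and 286 CPM in 10y-noCHF dogs and at 161, 211 and 323 CPM in 10y-MMVD-CHF dogs. The groups differed by 0.032 on the log2 scale (95% interval -0.16 to 0.22, edgeR FDR = 0.981).

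Of the cadherins, CDH2 had the larger point estimate, and it rested on 1 dog. It was found at 40.5, 65.1 and 188 CPM in 10y-noCHF dogs and at 55.1, 68.2 and 355 CPM in 10y-MMVD-CHF dogs. The value of 355 CPM belonged to CAV1047, and the next highest of all dogs was 188 CPM. The log2 fold change was 0.30 (95% interval -0.21 to 0.82, edgeR FDR = 0.907) and became -0.011 without CAV1047 and 0.016 without CAV1047 and CAV614 (edgeR FDR = 0.993). With the cardiomyocyte marker mean as a covariate it was 0.18 (edgeR FDR = 0.820).

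CDH11 was found at 189, 249 and 348 CPM in 10y-noCHF dogs and at 85.7, 275 and 377 CPM in 10y-MMVD-CHF dogs. CAV1047 held the low value, far below the next lowest of all dogs at 189 CPM, while 12 of 15 dogs with heart failure lay above the 10y-noCHF median. Between the groups it differed by 0.073 on the log2 scale (95% interval -0.17 to 0.32, edgeR FDR = 0.962) and by 0.16 without CAV1047 and CAV614 (edgeR p = 0.0926).

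VIM and S100A4, the structural and calcium-binding markers, had their high values in dogs without heart failure. Both were also lower in dogs with more muscle RNA, as described below. VIM was found at 2316, 3508 and 4321 CPM in 10y-noCHF dogs and at 1835, 3229 and 3562 CPM in 10y-MMVD-CHF dogs, and 8 of 19 dogs without heart failure exceeded every dog with it. Among 10y-MMVD-CHF dogs, 1 of 15 lay above the 10y-noCHF median. Its log2 fold change was -0.10 (95% interval -0.29 to 0.091, edgeR FDR = 0.923). Without CAV1047 it was -0.055. With the cardiomyocyte marker mean as a covariate it was -0.066 (edgeR FDR = 0.848).

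S100A4 was found at 33.5, 80.8 and 147 CPM in 10y-noCHF dogs and at 27.7, 68.5 and 92.3 CPM in 10y-MMVD-CHF dogs, and 7 of 19 dogs without heart failure exceeded every dog with it. For S100A4 this gave a log2 fold change of -0.28 (SE 0.16, 95% interval -0.60 to 0.039, edgeR p = 0.0833, FDR = 0.826). With the cardiomyocyte marker mean as a covariate it was -0.21 (edgeR FDR = 0.727). In males, 0 of 9 dogs with heart failure lay above the median of the males without it for either VIM or S100A4. In females the counts were 5 of 6 for VIM and 4 of 6 for S100A4, but the test of the difference between the sexes gave an FDR of 0.946 for VIM and 0.996 for S100A4 (edgeR).

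**Figure D1:**
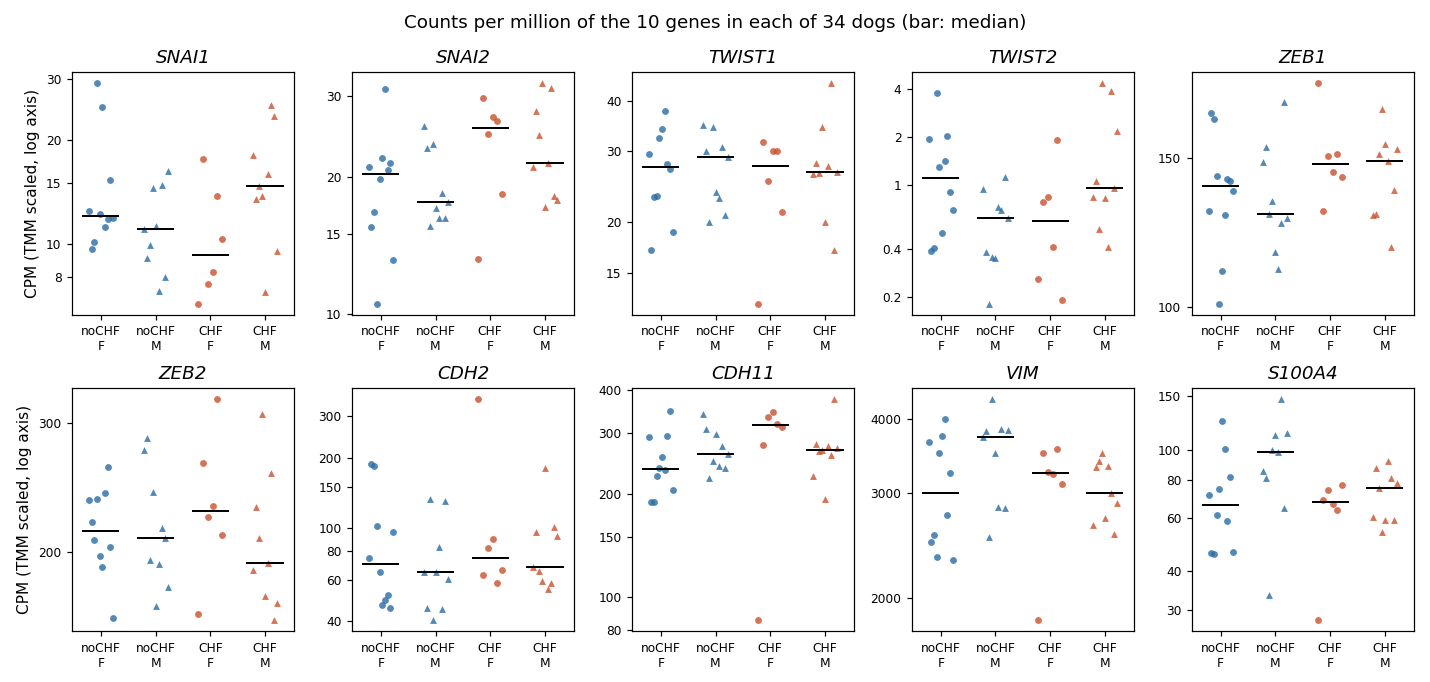
Level (CPM after TMM scaling, log axis) of each gene in each dog, by heart failure status and sex (F, female; M, male), with the median of each set as a bar. The sets overlap for every gene, and 1 female with heart failure (CAV1047) holds the lowest CDH11 (85.7 CPM) and VIM (1835 CPM) and the highest CDH2 (355 CPM).

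**Figure D2:**
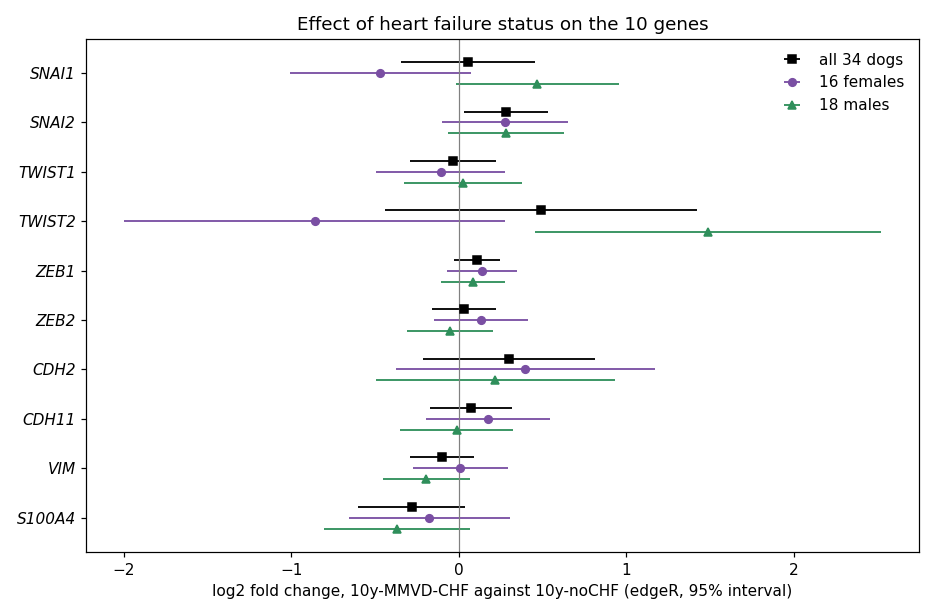
Log2 fold change of 10y-MMVD-CHF over 10y-noCHF dogs with its 95% interval from edgeR, in all 34 dogs, in the 16 females and in the 18 males. TWIST2 (-0.86 in females, 1.49 in males) and SNAI1 (-0.47 in females, 0.47 in males) lie on opposite sides of 0 in the sexes, and neither difference passed the FDR threshold.

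Sex itself moved none of the 10 genes past the threshold (0 of 10, against 28 of 19568 features or 0.143%), and 0 of 10 had an unadjusted p below 0.05, against 2.98% of all features. The nearest were S100A4, with a log2 fold change of males over females of 0.30 (95% interval -0.015 to 0.62, edgeR p = 0.0609, FDR = 0.9997), and CDH2, with -0.36 (95% interval -0.87 to 0.15, edgeR p = 0.162). The CDH2 value was -0.068 without CAV1047 and -0.050 without CAV1047 and CAV614. DESeq2 called 0 of the 10 genes for sex.

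The effect of heart failure was then compared between the sexes. No feature passed the FDR threshold for the interaction in edgeR (0 of 10 genes, background 0%), 1178 features had an unadjusted p below 0.05 (6.02%), and DESeq2 called 3 features, none of them among the 10. Of the 10 genes, 2 had an unadjusted p below 0.05, TWIST2 and SNAI1.

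For TWIST2, females without heart failure had 0.388, 1.10 and 3.77 CPM (lowest, median and highest), and females with it had 0.191, 0.600 and 1.91 CPM. Males without heart failure had 0.181, 0.627 and 1.13 CPM, and males with it had 0.408, 0.957 and 4.38 CPM. The medians thus ran in opposite directions, with 1 of 6 females and 7 of 9 males with heart failure above the median of their own sex without it, although all 4 ranges overlapped. The log2 fold change was -0.86 in females (95% interval -1.997 to 0.28) and 1.49 in males (0.46 to 2.52). The difference of 2.35 (SE 0.76, 95% interval 0.80 to 3.89) had an edgeR p of 0.00405 and an FDR of 0.815, so it did not pass. In fits that each lacked 1 dog it lay between 2.02 and 2.91.

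SNAI1 showed the same arrangement. Females had 9.65, 12.04 and 29.2 CPM without heart failure and 6.72, 9.32 and 17.6 CPM with it, whereas males had 7.32, 11.04 and 16.3 CPM without it and 7.26, 14.7 and 25.2 CPM with it. Above the median of their own sex without heart failure were 2 of 6 females and 7 of 9 males with it. The difference between the sexes was 0.94 on the log2 scale (SE 0.36, 95% interval 0.21 to 1.66, edgeR p = 0.0132, FDR = 0.815), and it lay between 0.77 and 1.13 in fits that each lacked 1 dog. With 6 females in the heart failure group the intervals are wide, and both results rank below many other features, at place 85 and 301 of 19568 by p.

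Most of the 10 genes moved with the amount of heart muscle RNA in the valve. When the cardiomyocyte marker mean was added to the edgeR model beside sex and status, 7 of 10 genes passed the FDR threshold, beside 7294 of 19568 features or 37.3%. At an unadjusted p below 0.05 the count was also 7 of 10, beside 40.1% of all features. CDH2 was higher with more muscle RNA, by 0.18 on the log2 scale per unit of the marker mean (SE 0.024, FDR = 4.42e-07). Lower with more muscle RNA were TWIST1 (-0.093, FDR = 8.73e-07), SNAI2 (-0.086, FDR = 6.33e-06), VIM (-0.062, FDR = 4.03e-05), ZEB2 (-0.054, FDR = 0.000635), S100A4 (-0.086, FDR = 0.00222) and CDH11 (-0.043, FDR = 0.0854). SNAI1 (-0.052, FDR = 0.194), TWIST2 (-0.058, FDR = 0.572) and ZEB1 (0.016, FDR = 0.257) did not pass.

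The same relation was measured as a correlation over the 34 dogs, with the means of the 4 sets of status and sex removed and permutation within these sets. TWIST1 had the tightest relation, with r = -0.82 and rho = -0.90, followed by CDH2 with r = 0.78 and rho = 0.86. SNAI2 had r = -0.76 and rho = -0.82, and VIM had r = -0.73 and rho = -0.78. For these 4 genes the permutation p of r and of rho was 1e-05, the smallest that the resampling can give, and 2.5e-05 when adjusted over the 10 relations.

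ZEB2 had r = -0.62 and rho = -0.62, and S100A4 had r = -0.58 and rho = -0.58. SNAI1 was looser, with r = -0.46 (permutation p = 0.00742, adjusted 0.0106) and rho = -0.51 (permutation p = 0.00313, adjusted 0.00391), and so was CDH11, with r = -0.41 (permutation p = 0.0173, adjusted 0.0216) and rho = -0.50 (permutation p = 0.00229, adjusted 0.00327). SNAI1 thus passed here, adjusted over the 10 relations only, but not in the edgeR fit, where its unadjusted p was 0.0915. For TWIST2 (r = -0.27, permutation p = 0.122, rho = -0.28) and ZEB1 (r = 0.28, permutation p = 0.135, rho = 0.31) no relation was detectable. Without CAV1196 and CAV749, the 2 dogs farthest from the median of the marker mean, r was between -0.84 and -0.37 for the 7 negative genes and 0.78 for CDH2. Within the 10y-noCHF group r was -0.84 for TWIST1 and 0.79 for CDH2, and within the 10y-MMVD-CHF group it was -0.84 and 0.76. Without CAV1047 and CAV614 it was -0.37 for SNAI1 and -0.33 for CDH11, the lowest of the 8.

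Several of the relations were curved. A straight line on the marker mean took 60.3% of the variance of CDH2 between dogs and a curve with its square took 84.7%. For CDH11 the share rose from 17.1% to 48.7%, for VIM from 53.6% to 70.5% and for TWIST1 from 67.5% to 80.1%. The gain was small for ZEB2 (38.03% to 39.8%), SNAI1 (21.3% to 23.7%) and TWIST2 (7.49% to 8.46%). CDH2 changed little between dogs of low marker mean and climbed steeply in dogs of high marker mean, and CDH11 stayed level before it fell. The square was added after the data had been seen. CAV1047, the dog with the highest marker mean, also had the highest CDH2 and the lowest CDH11, VIM and TWIST1 of all dogs. The curve was not fitted without CAV1047, so how far these shares rest on this dog was not tested. The counts of relations that pass with the square removed, given below, include this dog as well.

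**Figure D3:**
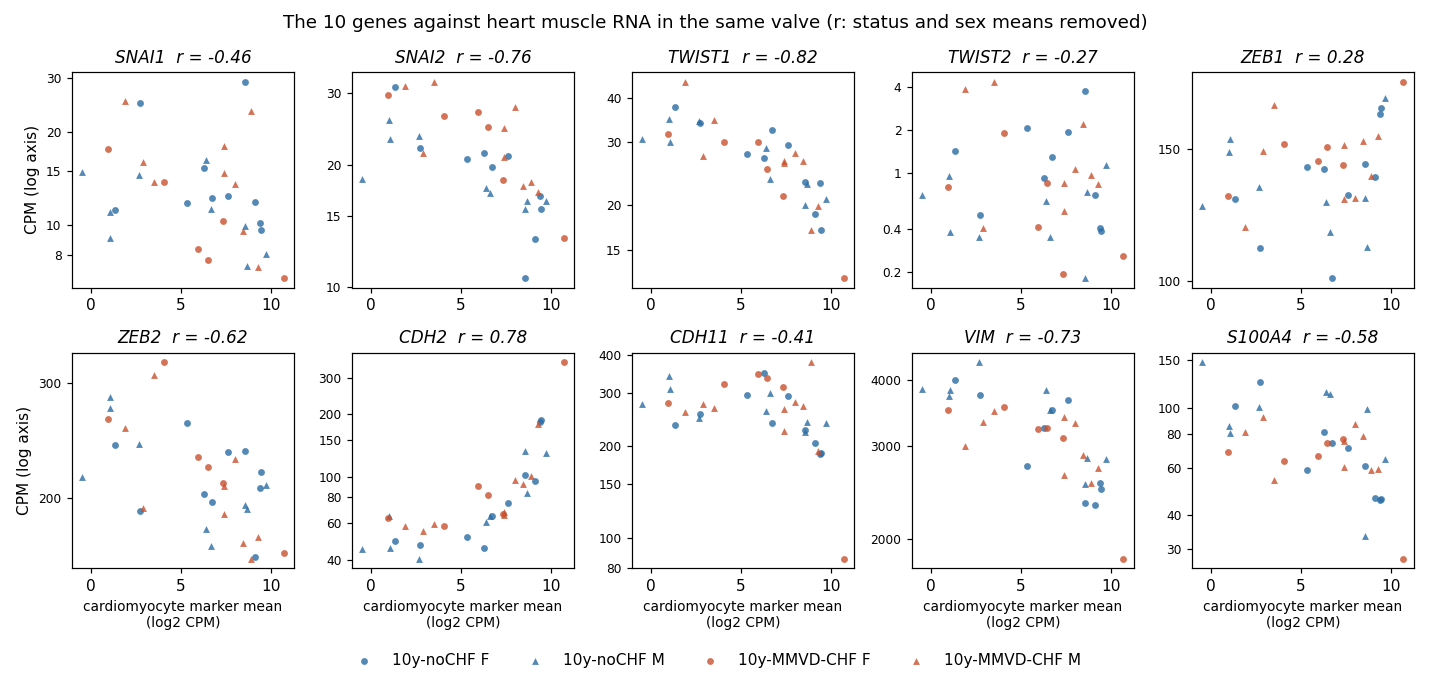
CPM of each gene (log axis) against the mean log2 CPM of 19 cardiomyocyte markers in the same dog, with colour for heart failure status and symbol for sex; r is Pearson's correlation after removal of the status and sex means. TWIST1 (r = -0.82), SNAI2 (r = -0.76) and VIM (r = -0.73) fall and CDH2 (r = 0.78) climbs with muscle RNA in both groups, while TWIST2 and ZEB1 show no clear slope.

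Pairs of genes were compared in the same way, over 45 pairs adjusted together. With status and sex removed, 30 of 45 pairs had an adjusted permutation p below 0.1 for both r and rho, 19 of them positive and 11 negative, and 7 of the 11 negative pairs involved CDH2. The tightest pair was SNAI2 and TWIST1, with r = 0.85 and rho = 0.90 (adjusted p = 0.000112 and 0.00015, permutation), r = 0.89 without the 2 dogs farthest from the SNAI2 median, and r = 0.80 and 0.90 within 10y-noCHF and 10y-MMVD-CHF dogs. TWIST1 and VIM had r = 0.83 and rho = 0.82, and CDH2 and VIM had r = -0.81 and rho = -0.77. SNAI1 and SNAI2, which share a family, had r = 0.17 and rho = 0.28 (adjusted permutation p = 0.402 and 0.171).

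The share of pairs that would pass among other genes was not measured, so the counts are not shown to be particular to the 10 genes. All of these pairs share the libraries, the totals and the muscle RNA of the dogs, and the number of pairs depended on how the last was removed. With the marker mean removed 16 of 45 pairs passed, and with its square removed as well 4 of 45 passed. These 4 were all positive, and ZEB1 and ZEB2 were the pair among them that had not passed before the square was removed. VIM and S100A4 had r = 0.56 and rho = 0.60 (adjusted permutation p = 0.0148 and 0.0117), SNAI2 and TWIST1 had r = 0.48 and rho = 0.51 (0.0665 and 0.0638), TWIST1 and TWIST2 had r = 0.48 and rho = 0.49 (0.0665 and 0.0638), and ZEB1 and ZEB2 had r = 0.50 and rho = 0.47 (0.0665 and 0.0891). When the 2 dogs most distant in the first gene were dropped, r was 0.52, 0.58, 0.42 and 0.52 in turn. Within 10y-noCHF and 10y-MMVD-CHF dogs r was 0.52 and 0.50 for VIM and S100A4, but 0.63 and 0.22 for ZEB1 and ZEB2. Of the 9 pairs with CDH2, 4 negative ones passed with the marker mean removed, among them CDH2 with CDH11 (r = -0.67) and with VIM (r = -0.57), and 0 passed with the square removed. CDH2 and S100A4 then had r = -0.49 (adjusted permutation p = 0.0665) but rho = -0.38 (adjusted permutation p = 0.141).

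**Figure D4:**
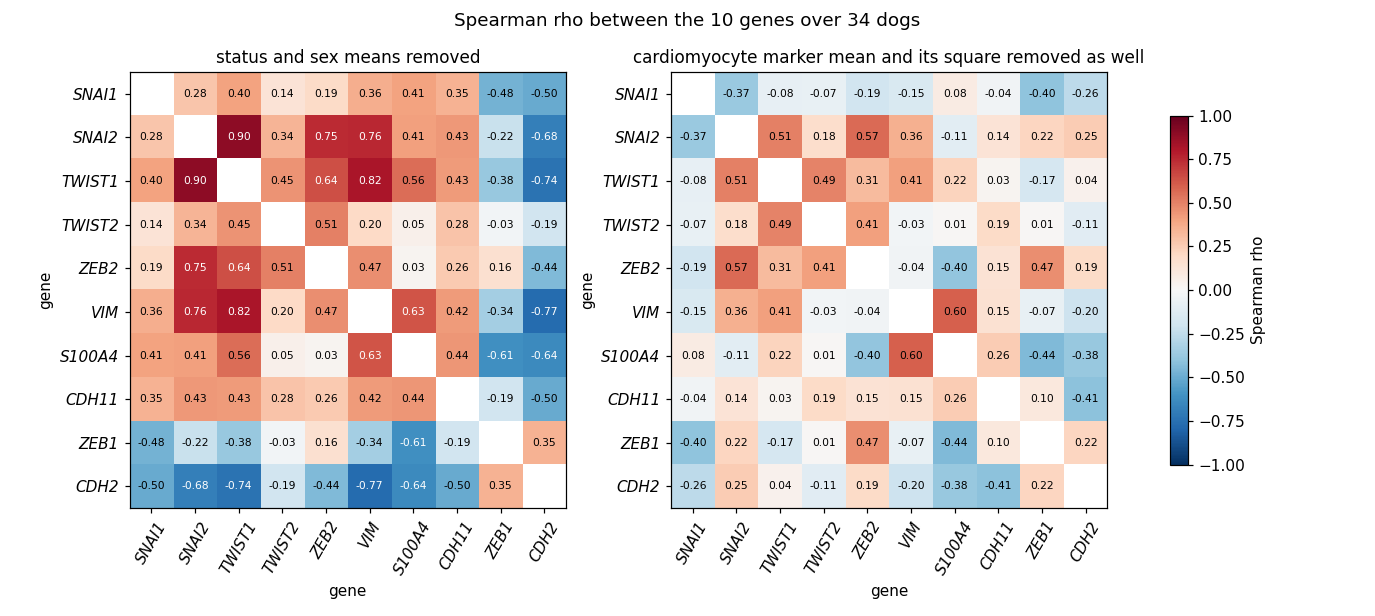
Spearman rho over 34 dogs for each pair of the 10 genes, with the means of status and sex removed (left) and with the cardiomyocyte marker mean and its square removed as well (right). At left SNAI2, TWIST1, ZEB2 and VIM form a positive block (rho = 0.47 to 0.90) and CDH2 runs against them (rho = -0.77 with VIM), and at right the colours are paler, with VIM and S100A4 (rho = 0.60) the strongest pair.

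Each gene was also set against the marker means of 10 other cell types, with status, sex and the cardiomyocyte marker mean removed. Of 100 relations, 13 had an adjusted permutation p below 0.1 for both r and rho, and 3 of them also passed with the square of the marker mean removed. The share that would pass for other genes was not measured, so these relations are not shown to be particular to the 10 genes. SNAI2 went with the 10 interstitial markers (r = 0.63, adjusted permutation p = 0.014, and rho = 0.68, adjusted permutation p = 0.004, over 34 dogs), with r = 0.57 without the 2 farthest dogs and r = 0.52 and rho = 0.58 with the square removed. CDH11 went with the 10 macrophage markers (r = 0.50 and rho = 0.54, and r = 0.51 and rho = 0.59 with the square removed) and against the 6 adipocyte markers (r = -0.51 and rho = -0.48, and r = -0.49 and rho = -0.52 with the square removed).

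The other 10 relations no longer passed for both r and rho with the square removed, but not all of them became weaker. TWIST2 and S100A4 with macrophage markers kept their size (rho = 0.47 and 0.46 before, 0.47 and 0.46 after), and ZEB2 with mast cell markers went from rho = 0.43 to 0.48. TWIST1 and VIM with the interstitial markers went from rho = 0.54 and 0.63 to 0.30 and 0.46, and CDH2 with Schwann cell markers went from 0.63 to 0.29. The negative relations were those of CDH11, VIM and S100A4 with Schwann cell markers, from rho = -0.62, -0.54 and -0.60 to -0.33, -0.19 and -0.35, and of VIM with mast cell markers, from -0.58 to -0.28. The endothelial marker mean passed for both r and rho with 0 of the 10 genes, and rho ranged from -0.45 for VIM to 0.32 for SNAI1. Mast cell markers summed to at most 30.3 CPM and melanocyte markers to at most 44.4 CPM, with DCT at 0 in all dogs. T and B cell markers summed to at most 44.8 CPM, so these lists carry little signal. Adipocyte markers, which CDH11 went against, had median sums of 34.5 CPM in 10y-noCHF dogs and 15.7 CPM in 10y-MMVD-CHF dogs. That relation too rests on markers of low level. The part of these cell types in the levels of the 10 genes was not tested further.

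**Figure D5:**
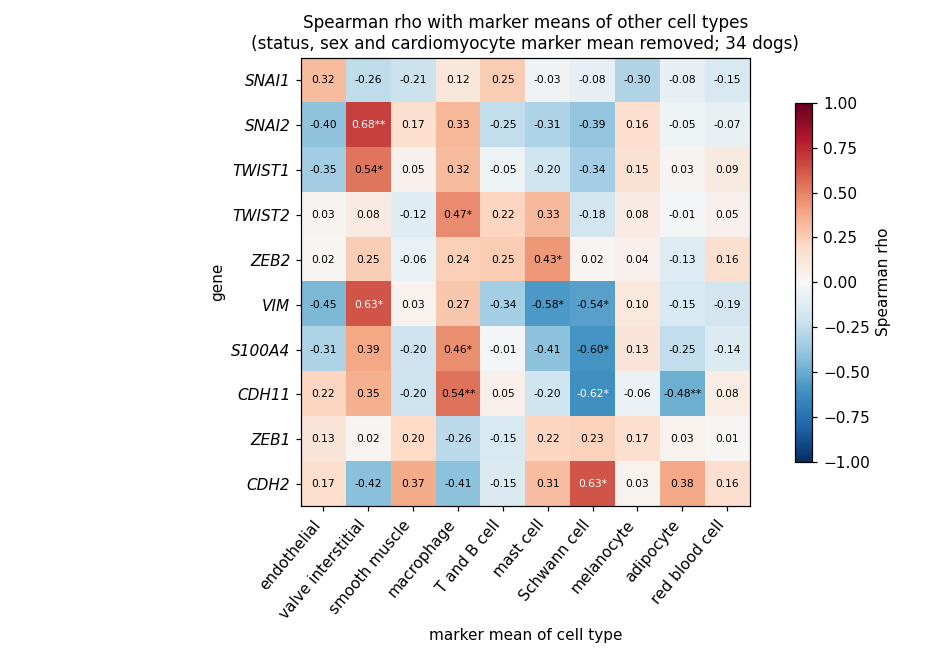
Spearman rho over 34 dogs between each gene (rows) and the mean log2 CPM of the markers of 10 cell types (columns), with status, sex and the cardiomyocyte marker mean removed. A single asterisk marks an adjusted permutation p below 0.1 for both r and rho, and a double asterisk marks those that also pass with the square of the marker mean removed, which are SNAI2 with interstitial markers (rho = 0.68) and CDH11 with macrophage (rho = 0.54) and adipocyte (rho = -0.48) markers.

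In the wider pathway, the only gene that edgeR called for heart failure was VWF, described below. Some others had a smaller p than any of the 10 genes. Genes named from each list were picked for their small p, so their counts of dogs above a median add no separate support. Of 16 other transcription factors of the transition, all tested, 0 passed the FDR threshold in either direction, with a median log2 fold change of 0.022. The 2 with the smallest p were KLF4, a zinc finger factor of endothelium (log2 fold change -0.26, edgeR FDR = 0.696), and PRRX1, a homeobox factor of mesenchyme (0.10, edgeR FDR = 0.908). Of 20 inducing signals and receptors, among them the TGF-beta ligands and NOTCH1, 0 passed, and the median was 0.043. Leading this list were CTNNB1, the beta-catenin of cadherin junctions, with 13 of 15 dogs with heart failure above the 10y-noCHF median (log2 fold change 0.18, edgeR p = 0.00471, FDR = 0.480), and ACVRL1, an endothelial receptor of the TGF-beta family (0.19, edgeR FDR = 0.822).

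Among 10 genes of endothelial junctions and identity, 1 rose and 0 fell (background 23 of 19568 features, or 0.118%), with a median of 0.076. The gene that rose was VWF, von Willebrand factor, which the paper also lists as higher in heart failure, from the same dogs. The lists were chosen with earlier results of these data known. VWF was found at 17.4, 61.5 and 211 CPM in 10y-noCHF dogs and at 81.7, 168 and 557 CPM in 10y-MMVD-CHF dogs. All 15 dogs with heart failure lay above the 10y-noCHF median, and the log2 fold change was 1.40 (SE 0.30, edgeR FDR = 0.0678, DESeq2 FDR = 0.0109). With the marker mean as a covariate it was 1.41 (edgeR FDR = 0.0103), and without CAV1047 and CAV614 it was 1.34 but did not pass (edgeR FDR = 0.117), so that 0 of the 10 genes did. TEK, the angiopoietin receptor, was next (0.28, edgeR FDR = 0.778). Of 14 tested epithelial genes 0 passed (median -0.10), led by CLDN1, a tight junction claudin (0.47, edgeR FDR = 0.786), and CDH1, E-cadherin itself, which was near the detection limit at 0.256 to 1.48 CPM (0.39, edgeR FDR = 0.848).

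Of 20 mesenchymal and matrix genes, 0 passed in edgeR and 1 in DESeq2, with a median of -0.062 in edgeR. For PDGFRA, a receptor of fibroblast-like cells, the groups differed by 0.16 on the log2 scale, with an edgeR FDR of 0.836.

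The relatives of CDH2 and CDH11 were 19 tested cadherins, of which 0 passed, with a median of 0.086. CDH13, the membrane-anchored T-cadherin, was found at 218, 363 and 516 CPM in 10y-noCHF dogs and at 172, 282 and 346 CPM in 10y-MMVD-CHF dogs, and 0 of 15 dogs with heart failure lay above the 10y-noCHF median. Its log2 fold change was -0.39 (SE 0.11, edgeR p = 0.00141, FDR = 0.369). CDH6 (K-cadherin) had a log2 fold change of -0.81 (edgeR p = 0.00211, FDR = 0.397) at a low level, with medians of 3.44 and 2.44 CPM. Of 10 catenins, which link cadherins to the cytoskeleton, 0 passed (median 0.070), led by CTNNB1 and CTNND2 (log2 fold change -0.38, edgeR FDR = 0.819).

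Of 16 intermediate filament and lamina genes beside VIM, 0 passed, with a median of -0.054. LMNA, which encodes lamins A and C of the nuclear envelope, had the smallest p. Its log2 fold change was -0.26 (SE 0.075, edgeR p = 0.00127, FDR = 0.368), with 3 of 15 dogs with heart failure above the 10y-noCHF median. The paper, which used DESeq2 on these dogs, lists LMNA as differentially expressed at an FDR threshold of 0.1. DESeq2 here gave an FDR of 0.135. NEFM, a neurofilament gene, was second by p but never exceeded 0.496 CPM. Of 13 tested S100 genes beside S100A4, 0 passed (median 0.028). S100A10, the partner of annexin A2, was found at 86.8, 120 and 149 CPM in 10y-noCHF dogs and at 67.5, 106 and 119 CPM in 10y-MMVD-CHF dogs, with 0 of 15 dogs with heart failure above the 10y-noCHF median (log2 fold change -0.25, SE 0.073, edgeR p = 0.00169, FDR = 0.385). S100A5 was low, with medians of 0.476 and 0.347 CPM (-1.06, edgeR FDR = 0.480).

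The genes whose levels followed each of the 10 most closely were taken from up to 14498 features by Spearman rho over the 34 dogs, with status and sex removed. These are descriptions, since features share the libraries and the muscle content of the dogs. The closest to SNAI2 were CLIP3 (rho = 0.92) and PCDHGC5 (0.91) and PCDHGC4 (0.91), features of the gamma-protocadherin cluster that may share reads. TWIST1 had SNAI2 itself as its nearest gene of all (0.90). The nearest of SNAI1 were more distant, SCYL3 (0.69), PDE4B (0.65) and RIN3 (0.65).

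TWIST2 had immune genes as its nearest, the chemokine CCL2 (0.81) and the class II antigen presentation genes HLA-DPA1 (0.79) and HLA-DRA (0.79). With the cardiomyocyte marker mean removed as well CCL2 stayed first (0.76), followed by DLA-DQB1 (0.74) and HLA-DQB1 (0.73), features of similar sequence that may share reads. ZEB1 was nearest to ZFR (0.86), RIOK1 (0.85) and ARHGAP5 (0.84), and ZEB2 to ZDHHC9 (0.85), NEO1 (0.84) and POTEJ (0.80).

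CDH2 was nearest to DNAJC27 (0.92), UQCRC1 (0.91) and ILRUN (0.91). With the marker mean removed it was nearest to ILRUN (0.90) and PFKM (0.89). UQCRC1 encodes a subunit of the respiratory chain and PFKM an enzyme of glycolysis. The square of the marker mean was not removed here, although for CDH2 a curve took 84.7% of the variance and a line 60.3%. Muscle RNA can therefore still enter these values. CDH11 was nearest to PLXDC2 (0.84), HS3ST1 (0.84) and ST6GAL1 (0.83). VIM was nearest to FAIM2 (0.88), SPATS2L (0.87) and PNMA6A (0.86), and S100A4 to NGEF (0.84) and the overlapping features CA5B (0.83) and CA5BP1-CA5B (0.82).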

How the data were processed

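Poly-A RNA of mitral valves was sequenced in read pairs. Alignment was by STAR on canFam4, and the values the authors deposited are unnormalised counts, made with featureCounts 2.0.3, for 2165 canine RefSeq features and 21603 human XenoRefSeq features. The recorded command applies no strand, counts the reads of a pair separately and assigns a read to every overlapping feature. The table has 1 count column of no labelled sample, which was not used. The canine feature was used where a symbol had both.

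The 19568 features whose counts summed to 100 or more were tested with edgeR 4.0.16 (TMM, quasi-likelihood, status and sex, two-sided, FDR 0.1) in R 4.3.3. DESeq2 1.42.0 and limma 3.58.1 voom were alternatives. CPM and RPKM are TMM-scaled, and log2 CPM used a prior count of 2. Correlations used 100000 two-sided permutations within status and sex. Dogs are separate animals and no count table was identical between dogs. Intervals cover the fit's error only. On simulated data for heart failure status, with 200 of 19568 features changed, edgeR recovered 84.5% with 10.6% false calls. The planted changes were larger than the estimate for status of any of the 10 genes, and the simulated dogs did not vary in muscle RNA. The share recovered therefore does not apply to changes as small as those of the 10 genes. All pathway genes named are the 2 with the smallest p of each list and any past the FDR, and some genes that this rule or the likeness ranking gave are not reported here. The 10 genes, lists and the 2 dogs that stand apart were chosen with earlier results of these data known.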

Additional observations from a re-analysis of the deposited data

Results flagged for a closer look

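Values far from the other dogs of the same status and sex were looked for with Dixon's ratio in 40 sets (10 genes in 4 sets of 6 to 10 dogs). Of these, 7 were flagged, where chance flags about 1 in 20, or 2 of 40, if values are normally distributed and sets are independent. The same dogs enter the sets of all 10 genes, so this number is only a rough guide. The 7 values came from 4 dogs.

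The female CAV1047 gave 4 of them among the 6 females with heart failure, with CDH2 at 355 CPM (next highest 90.0), CDH11 at 85.7 CPM (next lowest 277), VIM at 1835 CPM (next lowest 3107) and S100A4 at 27.7 CPM (next lowest 63.4). This dog had the highest cardiomyocyte marker mean of all 34 (10.71 on the log2 scale). Among the 9 males with heart failure, CAV373 had CDH2 at 180 CPM (next highest 101) and CAV648 had CDH11 at 377 CPM (next highest 279). Among the 10 females without heart failure, CAV1732 had TWIST2 at 3.77 CPM (next highest 2.05).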

How the results depend on the processing

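None of the 10 genes passed the threshold for status, sex or their interaction under any alternative run. Over all features, status called 23 with edgeR, 64 with DESeq2, 13 without the sex term, 9 at an FDR of 0.05 and 8 to 28 when each dog was left out (8 to 15 without CAV1519, CAV2102, CAV1259, CAV488, CAV749, CAV901, CAV648, CAV828, CAV1196, CAV447, CAV1790, CAV444, CAV2156, CAV1097 or CAV494), and the interaction called 0 with edgeR and 3 with DESeq2. Sex called 28 with edgeR and 27 to 30 when each dog was left out. Leaving out each dog turned the sign of small effects, for status in SNAI1 (-0.022 to 0.13), TWIST1 (-0.094 to 0.030), ZEB2 (-0.021 to 0.065) and CDH2 (-0.011 to 0.38), for sex in SNAI1 (-0.064 to 0.11), SNAI2 (-0.042 to 0.066), TWIST2 (-0.36 to 0.020) and CDH11 (-0.028 to 0.082), and for the interaction in SNAI2 (-0.11 to 0.086), TWIST1 (-0.00062 to 0.21), ZEB1 (-0.093 to 0.017) and CDH2 (-0.39 to 0.55). With the marker mean as a covariate the sex effect turned to -0.027 in SNAI1 and -0.036 in SNAI2. Without CAV1047 and CAV614, an alternative chosen after seeing the data, it turned to -0.11 in SNAI1, -0.062 in SNAI2, -0.029 in TWIST1, 0.0024 in ZEB1 and -0.019 in CDH11. The causes were not tested. On the other feature of the symbol, medians were 9.01 RPKM for SNAI2, 0.337 for CDH2, 415 for VIM and 65.0 for S100A4, over features whose length includes introns. The endothelial list had 0 genes past the threshold without CAV1047 and CAV614, against 1 with them. With the square of the marker mean removed, 4 pairs of genes and 3 relations to other cell types passed, against 16 and 13. The relation to the cardiomyocyte marker mean passed for 8 genes by correlation and 7 by edgeR, and for 8 under other factors, without the 2 dogs, and with the markers left out of the totals. No paired analysis was possible because every dog has a number of its own. Counting error limits TWIST2, with a median of 49 counts.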
